A study of Drosophila melanogaster with 2 samples.

Results

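Neuroblasts are the stem cells of the fly nervous system. They divide unequally, keep one daughter as a stem cell and hand fate determinants to the other, whose progeny become neurons. The 10 genes described here span that path. They are the asymmetric division genes insc, mira and pros, the transcription factor genes wor, dpn and scrt, the column identity gene Dr, and the early neuron genes nerfin-1, elav and cpo. They were picked by name, out of 13968 protein-coding genes with an annotated start, and binding of the proneural factor Atonal was read at each. A peak was counted for a gene if its summit lay inside the gene or if the nearest protein-coding start was one of the gene's.

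The binding data came from chromatin immunoprecipitation and sequencing (ChIP-seq) of whole Drosophila melanogaster embryos collected over 0 to 18 h, in 2 biological replicates that form 1 group. The flies, of the strain ato-GFP, carried an ato fusion with enhanced GFP, and an antibody against GFP was used. All embryos carried the fusion, and neither an untagged nor an otherwise treated group was analysed here. Atonal itself is best known from sense organ precursors of the peripheral nervous system, and like other basic helix-loop-helix (bHLH) proteins it binds, with a partner, E-boxes of the form CANNTG. Whole embryos over this age span mix many tissues and stages, so fewer cells with a bound site and weaker binding per cell cannot be told apart. The files hold no expression values, so the labelled material could not be checked against marker genes.

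The files give a signal for each peak, whose scale is not stated, and no read counts, so depth is unknown. The main list, called conservative, compares the replicates with each other and holds 3009 peaks with a median signal of 88.6. A ranked list behind it holds 161563 peaks with a median of 17.7 and a value of the irreproducible discovery rate (IDR). This is the expected share, among peaks at that rank or better, that do not repeat between replicates. Every conservative peak had a −log10 IDR of at least 2. Peaks of the ranked list covered 36.0% of the main chromosome arms, so a ranked peak by itself is no sign of a site. In 99.6% of ranked peaks the summit was the middle of the interval, which limits how finely a position can be read.

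Atonal binding passed the reproducibility threshold at 4 of the 10 genes, insc, elav, Dr and cpo, with 1 conservative peak each. Of all coding genes, 20.2% had a conservative peak by the same rule. Several of the genes are long, however, and per length of genome the order was the other way round. The stretches in which a summit would be counted for the 10 genes add up to 339.3 kb, and they held 1.18 conservative peaks per 100 kb against 2.18 over the main arms. Of that length pros took up 121.2 kb, with 0 conservative peaks, and cpo 100.7 kb, with 1. The lower rate thus rests largely on pros and cpo and is not a trait of each gene. All 4 peaks lay below the median signal of the conservative list, 88.6, that of insc only just, at 87.8. None was thus among its strongest 50% by signal, where 11.1% of coding genes had a peak. The remaining 6 genes, mira, pros, wor, dpn, scrt and nerfin-1, had ranked peaks only. The design has 1 group and the genes were chosen with earlier results of these data known, so no test was made of these counts.

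The sequences around the strongest peaks show what lay under the signal, and they include the only conservative peak of the set with an E-box close to its summit. Each runs 5′ to 3′ on the strand of the gene in dm6, taken from the RefSeq assembly, and covers up to 50 bases on each side of the summit, without annotated untranslated sequence. Capitals mark CANNTG.
cpo, intron, conservative peak, plus strand, chr3R:17954234-17954334: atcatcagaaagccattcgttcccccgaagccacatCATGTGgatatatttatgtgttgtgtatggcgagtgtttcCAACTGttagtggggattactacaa
cpo, upstream, ranked peak just short of the threshold, plus strand, chr3R:17919231-17919331: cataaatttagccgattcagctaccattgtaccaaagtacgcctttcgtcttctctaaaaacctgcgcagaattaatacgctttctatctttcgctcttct
Dr, upstream, conservative peak, plus strand, chr3R:29556195-29556295: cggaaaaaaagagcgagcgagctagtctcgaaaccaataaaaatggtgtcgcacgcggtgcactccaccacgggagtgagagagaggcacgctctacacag
elav, bases just upstream of the start under the conservative peak, minus strand, chrX:523227-523271: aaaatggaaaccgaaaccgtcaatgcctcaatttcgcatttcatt
mira, coding exon, strongest ranked peak, minus strand, chr3R:19933047-19933147: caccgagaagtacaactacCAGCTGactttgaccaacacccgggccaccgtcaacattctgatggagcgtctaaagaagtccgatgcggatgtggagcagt
nerfin-1, coding exon, strongest ranked peak, plus strand, chr3L:910091-910191: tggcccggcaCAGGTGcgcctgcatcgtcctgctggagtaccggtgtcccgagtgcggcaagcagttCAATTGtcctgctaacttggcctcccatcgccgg

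Among the asymmetric division genes, insc had the strongest peak of the whole set. Inscuteable, its product, is an adaptor that couples the polarity proteins at the apical cortex to the machinery that orients the spindle. The gene (FBgn0011674, minus strand, chr2R:20821262-20836028) had a conservative peak at chr2R:20835785-20836120, in 5′ UTR, with its summit 75 bp past the start. Its signal was 87.8, rank 1535 of 3009, with a −log10 IDR of 2.87. At this place the signal was 40.9 in the ranked list of replicate 1 and 46.6 in that of replicate 2. The replicates' lists each have their own scale, so these values are read within a list, where the peak ranked 2256 and 1430. The summits of the replicates lay 2 and 41 bp from the combined one. The phosphoinositide kinase gene sktl starts at the same base as insc, so the peak belongs to both starts equally. A second start of sktl lies inside insc, and a ranked peak there, 15 bp past it, had a signal of 47.9 and a −log10 IDR of 1.10.

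The pros locus held the most ranked peaks of the set, over the longest stretch, and none past the threshold. Prospero, a homeodomain protein, is passed to the smaller daughter cell, where it ends self-renewal. The gene (FBgn0004595, plus strand, chr3R:11328480-11407627) had 174 ranked peaks, 144 per 100 kb against 142 over the 10 genes, with a median signal of 17.5 and a highest value of 58.7. That highest peak, at chr3R:11352883-11353218, was in 5′ UTR of the nested genes KP78a and KP78b, 80 bp past their start and 18071 bp from the nearest start of pros. Replicate 1 gave 45.8 there and replicate 2 gave 12.2, from a peak whose summit lay 199 bp away, and the −log10 IDR was 0.144. By signal alone this peak came close to the conservative peak of cpo, at 59.2, but its rank was 1827 in replicate 1 and 67553 in replicate 2. At the starts of pros itself the strongest ranked signal was 31.9, with the summit at −159 bp.

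Miranda, the product of mira, carries Prospero to the daughter cell. The gene (FBgn0021776, minus strand, chr3R:19931799-19935120) had the weakest strongest peak of the 10 genes, at 30.6, in a coding exon 1901 bp past a start. The signals were 17.7 in replicate 1 and 8.53 in replicate 2, with a −log10 IDR of 0.152. Within 500 bp of a start mira reached 17.6, lower than any other gene of the set.

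Of the 3 neuroblast transcription factor genes, dpn came nearest to the threshold. Deadpan is a bHLH repressor that maintains the neuroblast state. The gene (FBgn0010109, minus strand, chr2R:8228971-8232330) had a ranked peak with its summit at −136 bp, a signal of 56.0 and a −log10 IDR of 1.05. Replicate 1 gave 34.3 there, rank 3141, and replicate 2 gave 19.9, rank 20478. Worniu and Scratch are zinc finger proteins of the Snail family. At wor (FBgn0001983, minus strand, chr2L:15423297-15425580) the strongest ranked peak reached 32.4, 28 bp past the start, and replicate 2 gave 17.3 while no ranked peak of replicate 1 overlapped it. At scrt (FBgn0004880, plus strand, chr3L:3983896-3994003) the strongest peak had a signal of 39.8 and lay in 3′ UTR, 7635 bp past the start. It held 3 E-boxes within 50 bp of its summit, and the replicates gave 29.2 and 17.8 with a −log10 IDR of 0.715.

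Dr, also called msh, encodes a homeodomain protein that marks the dorsal column of the early neuroectoderm. The gene (FBgn0000492, plus strand, chr3R:29556386-29565244) had its conservative peak in intergenic sequence at chr3R:29556077-29556412, with the summit at −141 bp. The signal was 68.3, rank 2227, with a −log10 IDR of 2.15. Replicate 1 gave 38.7 and replicate 2 gave 27.8, from summits 1 and 8 bp away from the combined one. No other ranked peak of Dr exceeded 37.2, so the peak at the start stood alone in the 36.1 kb counted for the gene.

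Of the 4 conservative peaks, that of elav was the only one also found in a thresholded list of 1 replicate, and that of cpo the only one away from a start. Over all conservative summits on the main arms, 81.5% lay within 500 bp of a coding start. No such share is given here for overlap with a replicate's list. The product of elav is an RNA-binding protein used as a marker of neurons. The gene (FBgn0260400, minus strand, chrX:509235-523226) had its peak at chrX:523053-523388, with the summit 5 bp past the start, a signal of 81.3, rank 1720 and a −log10 IDR of 2.20. Replicate 1 gave 55.2 and replicate 2 gave 27.0, the latter from a summit 136 bp away. The peak overlapped one in the thresholded list of replicate 1 and none in that of replicate 2. The 15 ranked peaks of the locus ran from 10.1 to 81.3 with a median signal of 28.0, above the median of 97.6% of the 5683 coding genes with at least 10 ranked peaks. The median over all ranked peaks of the X chromosome was 15.9, below the 18.1 to 18.5 of the large autosomal arms.

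The product of cpo is an RNA-binding protein found in the peripheral nervous system and in neurons. The gene (FBgn0263995, plus strand, chr3R:17919832-18018892) is the longest of the set, with 138 ranked peaks. Its conservative peak, at chr3R:17954116-17954451, lay in an intron 10178 bp past the nearest start, with a signal of 59.2, rank 2615 and a −log10 IDR of 2.13. The replicates gave 28.5 and 32.0, from summits 15 and 2 bp away. A ranked peak upstream of the first start, with its summit at −551 bp, was slightly higher at 62.0, with 37.2 and 24.5 in the replicates. Its −log10 IDR of 1.79 put it first among the peaks of the 10 genes that missed the threshold, and in the authors' pooled list, which combines the replicates another way, it passed with 2.29. That list also held a cpo peak 12 bp past an internal start, with a signal of 29.7 and a −log10 IDR of 2.20. Where the replicates were paired, the same peak had a −log10 IDR of 0.199, and replicate 2 had no peak overlapping it. Replicate 1 had 2, of which the one in its thresholded list, with its summit 15 bp away, had a signal of 10.7 and a −log10 IDR of 2.06, and the other, 226 bp away, had 15.8 and 0.432.

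The last gene, nerfin-1, encodes a zinc finger protein of young neurons. It (FBgn0028999, plus strand, chr3L:909112-912319) reached 38.9 in a coding exon 1029 bp past the start, and 15.6 and 15.3 in the replicates, with a −log10 IDR of 0.438.

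**Figure D1:**
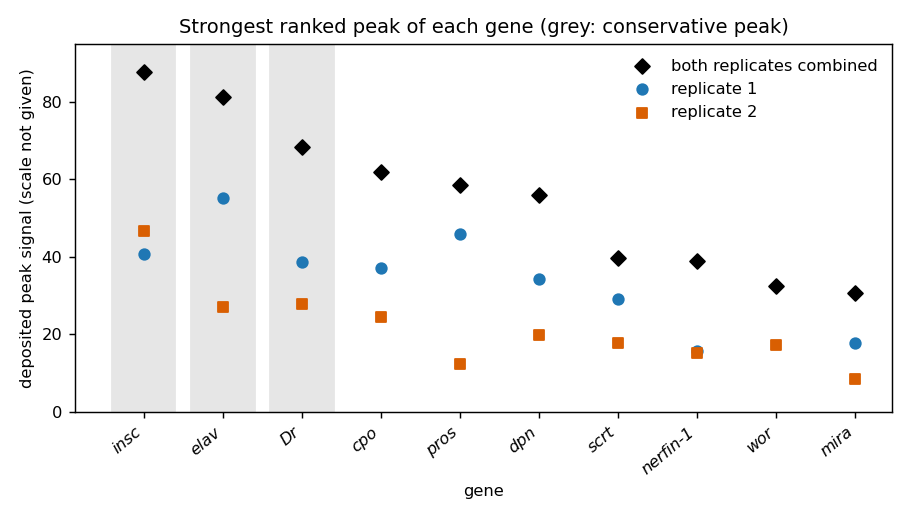
Deposited signal (vertical axis, scale not given) of the strongest ranked peak of each gene (horizontal axis), in both replicates combined (diamonds), in replicate 1 (circles) and in replicate 2 (squares); grey marks genes whose strongest peak is conservative. The combined signal runs from 87.8 at insc to 30.6 at mira, and the order of the genes differs between the replicates, most of all for pros, at 45.8 in replicate 1 and 12.2 in replicate 2; the 3 series are each on their own scale.

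Ordered by their strongest ranked peak, the genes ran insc, elav, Dr, cpo, pros, dpn, scrt, nerfin-1, wor and mira. The order was not the same in the replicates. In replicate 1 it began with elav at 55.2, pros at 45.8 and insc at 40.9, and in replicate 2 with insc at 46.6, Dr at 27.8 and elav at 27.0. Of the neighbours in the combined order, insc and elav, cpo and pros changed places in replicate 1, and elav and Dr, pros and dpn, nerfin-1 and wor in replicate 2. No difference can be read within these pairs. The pairs Dr and cpo, dpn and scrt, and scrt and nerfin-1 kept their order in both, but 2 replicates are too few to show that they differ. At the peak of wor replicate 1 gave no value.

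**Figure D2:**
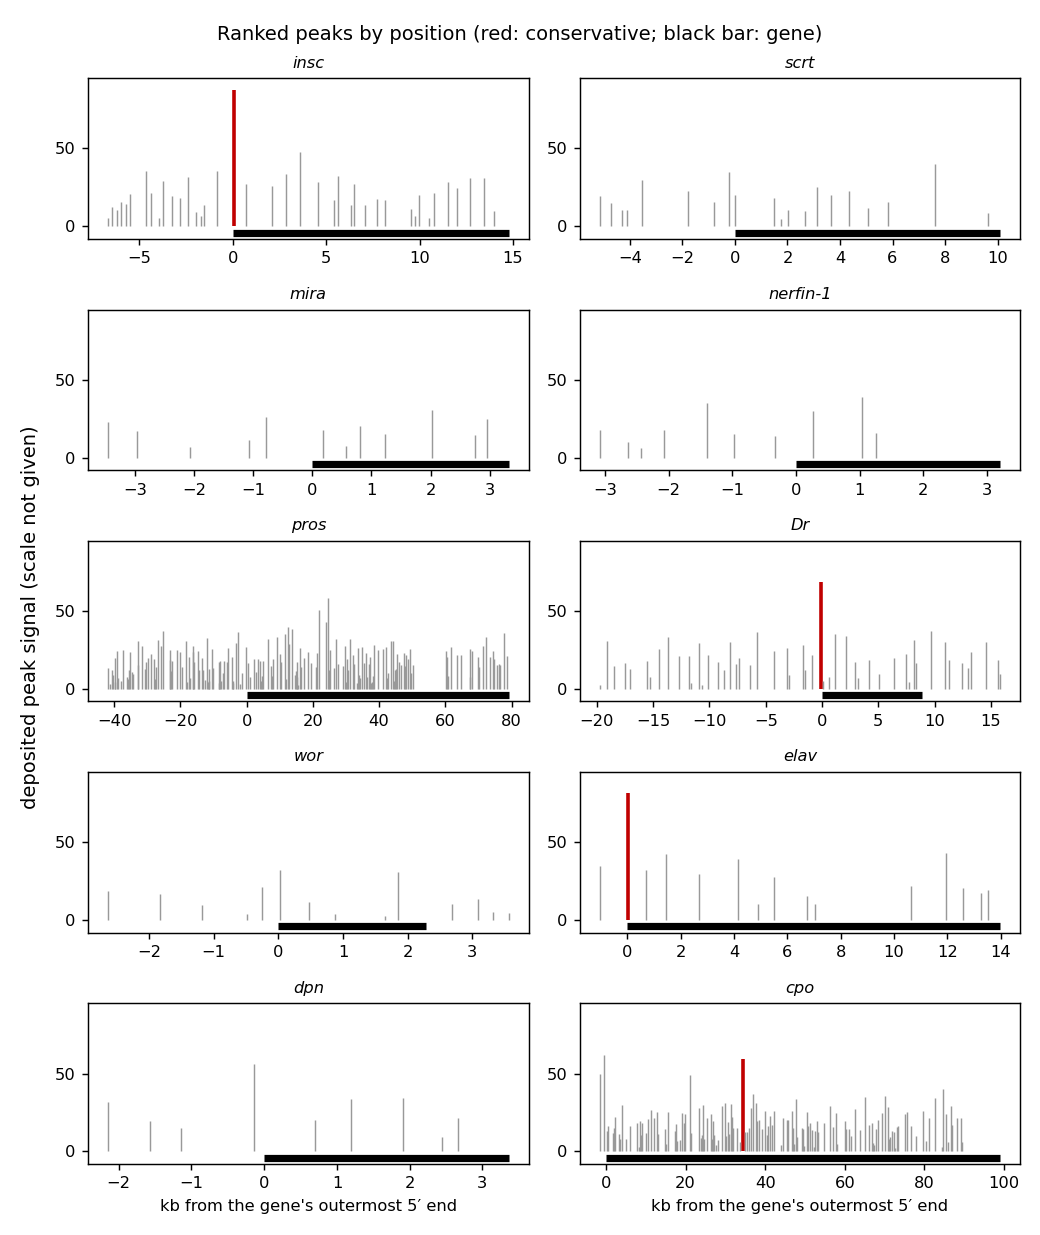
Each vertical line is a ranked peak, placed by the distance of its summit from the outermost 5′ end of the gene (horizontal axis, kb, the gene drawn as a black bar running to the right) with its deposited signal as height (scale not given); conservative peaks are red. The red lines at insc, elav and Dr stand at the 5′ end, that of cpo lies in the gene, and the other 6 genes show grey lines only.

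Over all 483 ranked peaks of the 10 genes, the signal was close to that of the genome. The median was 17.6, against 17.7 over all ranked peaks. Ranked peaks numbered 142 per 100 kb against 116 over the main arms. The latter rate includes the Y chromosome, of which 49.6% is masked as repeats, and was not adjusted for repeat content. Between genes the density ran from 86.7 per 100 kb at elav, where peaks were few and high, to 187 at wor, where they were many and low. The 14 ranked peaks of wor had a median of 10.7, below all but 1.71% of the coding genes with at least 10. A −log10 IDR of at least 1 was reached by 11 of the 483 peaks (2.28%), against 4.59% of all ranked peaks. Of these 11, cpo had 5, insc and elav 2 each, and dpn and Dr 1 each. Just inside the threshold was the intron peak of cpo at 2.13, and just outside it the upstream peak of cpo at 1.79.

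By annotation, 51.1% of the 483 entries lay in introns, of these or other genes, 24.8% between genes, 10.6% in coding exons, 6.63% in 3′ UTR and 4.55% in 5′ UTR. Most entries came from the long loci of pros, with 174, and cpo, with 138. The same shares over all ranked peaks are not given here. The 29 ranked peaks within 500 bp of a start of the 10 genes had a median signal of 20.2, and the other 454 had 17.5. Over all genes the medians were 23.1 near a coding start and 17.2 farther away.

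At the starts themselves the 10 genes spread across the range of all coding genes. The strongest ranked signal within 500 bp of a start had a median of 33.6 over the 10 genes and 32.1 over all 13968, and 6 of the 10 were above the latter. Of all coding genes, 86.3% were below insc, 84.9% below elav, 80.7% below Dr and 74.5% below dpn. The next genes were near the middle, with scrt at 34.7, wor at 32.4, pros at 31.9, nerfin-1 at 30.0 and cpo at 29.7, and mira, at 17.6, was the one gene of the set below the lower quartile of all coding genes, 19.2. The place of cpo depends on the limit of 500 bp, since its strongest peak lies at −551 bp. With a limit of 1000 bp, chosen after seeing the data, cpo had 62.0, above 75.3% of coding genes, and the medians were 45.4 over the 10 genes and 37.3 over all. A conservative summit within 500 bp of a start was found for insc, elav and Dr, 3 of 10, and for 21.7% of all coding genes.

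**Figure D3:**
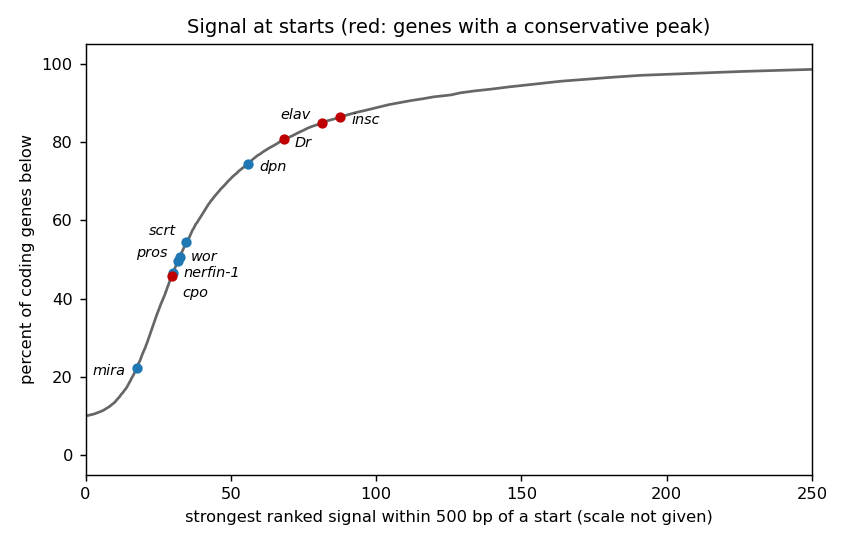
The curve gives the percent of all coding genes (vertical axis) whose strongest ranked signal within 500 bp of a start is below the value on the horizontal axis (scale not given, the few highest genes lie beyond the right edge); points are the 10 genes, red where the gene has a conservative peak. The genes insc, elav, Dr and dpn lie on the upper bend and 5 others sit close together near the middle; cpo is red for its intron peak and not for its start.

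The lists made from 1 replicate, or by pooling, gave fewer or the same genes. The pooled thresholded list had peaks at the same 4 genes, where 21.7% of all coding genes were called. The list of replicate 1 alone had peaks at elav and cpo, 2 of 10 against 17.0%, that of cpo being the peak at the internal start, and that of replicate 2 alone at 0 of 10 against 12.4%. A replicate's own lists derive from its alignment alone, so their IDR does not compare the 2 biological replicates. Within each replicate the intron peak of cpo had a −log10 IDR of 1.69 and 0.758, and the peak of insc 1.54 and 1.45, all short of 2. At elav the values were 3.04 and 0.721, and at Dr 1.92 and 0.0373.

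E-boxes were found within 50 bp of the summit in 1 of the 4 conservative peaks, against 38.7% of the 3005 conservative summits on the main arms. The share was 39.5% and 38.9% in windows of the same length centred 500 bp to either side. Shares of single E-box words varied, with no test made: CAGCTG was at 9.28% of summits against 5.79% and 4.76% of these windows, and CACCTG at 3.49% against 5.39% and 5.02%. The peak with E-boxes was the intron peak of cpo shown above, with CATGTG centred 12 bases before and CAACTG 28 bases after the summit. Read on either strand, CAACTG was found at 7.45% of all conservative summits, in 5.66% and 6.06% of the flanking windows and around 11.6% of coding starts. For CATGTG the shares were 4.36% of summits, 4.43% and 4.89% of flanking windows and 3.21% of starts. Of the strongest ranked peaks of the 10 genes, 6 held CANNTG, those of mira, pros, wor, dpn, scrt and nerfin-1, and thus none of the peaks of insc, elav and Dr or the upstream one of cpo. CANNTG was found around 43.7% of coding starts, but the peaks of mira, pros, scrt and nerfin-1 lay away from the gene's starts. No share over the strongest ranked peaks of all coding genes is given here, so the count has no direct comparison. The E-box at dpn was again the word CAACTG. The longer word TATCGATA, the site of the promoter factor DREF, was at 18.1% of all conservative summits, in 0.932% and 0.366% of the flanking windows and around 4.48% of coding starts, and at none of the 4 conservative peaks described here.

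Other genes of neuroblasts, neurons and glia were read for comparison, 45 in 6 lists chosen for their role. The choice was made with earlier results of these data known, so the counts are description only and were not tested. Of these 45, 10 had a conservative peak, close to the 20.2% of all coding genes. The division machinery led, with 7 of 15 genes, above that share. They were baz, the Par-3 gene of the apical complex, with a signal of 180.6, mud, for a spindle-orienting protein, with 124.4, numb, for a segregated inhibitor of Notch, with 118.5, and loco, for a regulator of G protein signalling, with 116.8. The cortical polarity genes scrib, dlg1 and l(2)gl followed with 76.3, 69.7 and 58.8. All of these summits were within 500 bp of a start of the gene. In 4 more of the 15, par-6, aPKC, pon and cnn, a conservative summit lay within 500 bp of a start but nearer to that of a neighbour (CG8188, ckn, Alms1a and Golgin97), with signals of 61.9, 88.1, 188.4 and 110.2, which makes 11 of 15 against 21.7%.

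Of 7 temporal factor genes of neuroblasts, svp, a nuclear receptor gene, had a peak of 103.4 and grh, the Grainyhead factor gene, one of 66.8. Of 5 glial genes, pnt, an Ets factor gene, had one of 93.8. No gene of the 4 column and Sox factors, of the 4 Snail family genes and their partners, or of the 10 neuronal markers had a conservative peak. Of all coding genes, 20.2% had one, and these lists are short. The median start signal was 99.6 in the division machinery, 55.2 in the temporal factors, 38.6 in the glial genes, 30.9 in the column and Sox factors, 28.5 in the neuronal markers and 23.4 in the Snail family list. Beside these, the 33.6 of the 10 genes described here was close to the 32.1 of all coding genes. Of the 11 conservative summits at starts of the division machinery, 4 held CANNTG and 3 held TATCGATA. Over all conservative summits on the main arms the shares were 38.7% for CANNTG and 18.1% for TATCGATA.

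**Figure D4:**
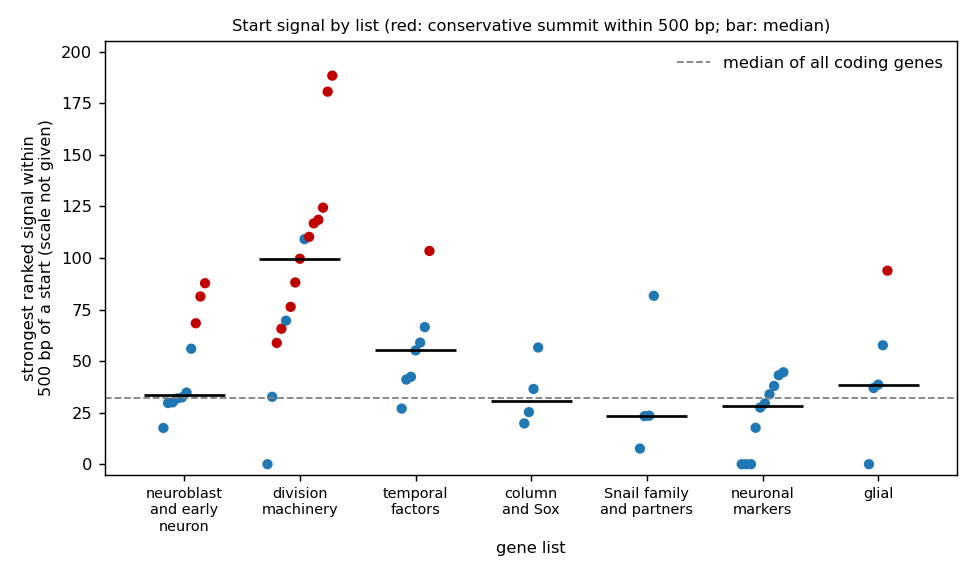
Strongest ranked signal within 500 bp of a start (vertical axis, scale not given) of every gene in the 7 lists (horizontal axis), red where a conservative summit lies within 500 bp of a start; for dlg1 and par-6 the point is a higher ranked peak than the conservative one; bars are list medians, the dashed line is the median of all coding genes, 32.1, and genes with no ranked summit there are drawn at 0. The division machinery is mostly red with a median of 99.6, and the column and Sox factors, the Snail family list and the neuronal markers have no red point.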

How the data were processed

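Per the labels, chromatin was sonicated to 200 to 800 bp. The authors deposited 8 peak lists on dm6, each with a signal per peak, to which the ranked ones add a −log10 IDR (the global value). Per the accompanying text files, a replicate's lists derive from its own alignment, the combined lists from both, and all from 1 further file from which tracks of fold change over control also derive. For the aligner and the peak caller, nothing is given in the sources used here. Starts, exons and genes came from Ensembl release 115, without transposable elements. Summits were assigned with Python 3.11.15, numpy 2.4.6 and pandas 2.3.3, and a gene sharing the nearest start counted as well. Where several features covered a summit, the order was 5′ UTR, coding sequence, 3′ UTR, exons of non-coding transcripts, intron. A replicate's value at a peak is that of its strongest overlapping ranked peak. Motifs were sought on both strands. Assignment and motif search were checked on simulated data. No p-value was computed. All 10 genes, their conservative and strongest ranked peaks, and every listed gene with a conservative peak were to be named; KP78a, KP78b and the neighbours of par-6, aPKC, pon and cnn were added with values in view. The genes and lists were chosen with earlier results of these data known.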

Additional observations from a re-analysis of the deposited data

How the results depend on the processing

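Of 54 alternative values for 9 results, 29 stayed within 1.5 times the count, or for the median signals within the spread of the replicates. Without one replicate, the genes with a peak, their peaks, and those near a start each numbered 0 to 2. Over single-replicate lists, peaks shared with the other list and peaks with CANNTG numbered 0, the median ranked signal was 10.6 to 11.5, and the median start signal, 33.6 in all, was 18.8 to 20.9. Among the strongest 50% of conservative peaks, genes with a peak, peaks, peaks near a start, peaks shared with a replicate's list and peaks with CANNTG all numbered 0, and 6 of the 45 comparison genes had a peak. In the pooled list 2 peaks overlapped a replicate's list. Within 1000 bp of a start, a limit added after seeing the data, the median start signal was 45.4. Within 100 bp of the summit 2 peaks held CANNTG, but no share over all conservative summits is given here for that wider window. Counting summits in the gene only gave 321 ranked peaks and 6 comparison genes, and summits within 5000 bp of the nearest start gave 176 ranked peaks. No share of all coding genes is given here for summits in the gene only. Matching replicate peaks by the nearest summit, also added later, left the replicate values of the conservative and the strongest peaks as they were. The cause of these shifts was not tested, and single-replicate signals are on their own scale. Comparison genes with a peak numbered 13 in replicate 1 alone and 8 in replicate 2 alone, against 10 in the conservative list. Of all coding genes, the same lists called 17.0%, 12.4% and 20.2%. No paired analysis was possible because there is 1 group and no test.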

Other observations

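In 2 of the genes a long stretch held no peak of the ranked list that pairs the replicates, where the median gap between such peaks over the main arms was 389 bases. In pros the gap was 9461 bases long (chr3R:11378923-11388383), and an annotated transposable element, FBti0019357, covers chr3R:11379291-11388387. Of its bases 96.4% are masked as repeats in the RefSeq sequence, against 19.5% of 3R. At cpo the gap was 17710 bases long (chr3R:18009344-18027053), took in the last 9549 bases of the gene and the genes DNaseII, CG7785 and CG7794, and was masked for 22.1%. Within it the ranked list of replicate 1 had 4 summits and that of replicate 2 had 1. Of 854 gaps of at least 9 kb on the main arms, 235 were masked for under 25%, and 74 of those were at least as long as that at cpo.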
